A study of Homo sapiens with 8 samples.

Results

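HIF1A and 9 genes that hypoxia is known to induce were followed in RNA-seq of A549, a human line of lung adenocarcinoma cells. The members were chosen by name, with earlier results of these data known, so their count is a description of these genes. They are HIF1A, ADM, VEGFA, NDRG1, BNIP3, BNIP3L, P4HA1, SLC2A1, PDK1 and EGLN3, each found through the GENCODE 44 symbol of its Ensembl identifier. All 10 were among the 58302 genes of the deposited count table, and 9 of them were among the 5368 genes with enough counts for a test across genes. PDK1 had too few counts for that test and is described by its counts.

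The study transfected A549 cells with an siRNA against APEX1, the gene of the DNA repair endonuclease and redox factor APE1, or with a scramble control siRNA, and sequenced 4 libraries of each. The groups are named siAPEX1 and siCTRL, as on the sample labels. Both groups are the same line, grown in RPMI medium with serum in an ordinary CO2 incubator, and neither the labels nor the methods name a hypoxic exposure. One siRNA was used and no rescue is among the libraries, so effects of the loss of APE1 and other effects of this siRNA cannot be told apart. The study calls the libraries biological replicates, and the labels do not say whether each came from a separate culture, so p-values measure the spread between these libraries.

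HIF1A is the oxygen-regulated subunit of the transcription factor HIF-1. In oxygenated cells, prolyl hydroxylases mark the protein for VHL-dependent degradation, and in hypoxia it is stabilised, pairs with ARNT and binds target genes at a short core motif, ACGTG or GCGTG. Targets include genes of glucose uptake, mitochondrial pyruvate use, mitophagy, collagen hydroxylation and blood vessel growth, and EGLN3, itself a prolyl hydroxylase that acts on HIF. APE1 is known as a redox factor that helps HIF1A and other transcription factors to bind DNA. The comparison asks whether the mRNA of HIF1A and of its targets differed between cells given the siRNA against APEX1 and the control.

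APEX1 had 51, 61, 64 and 47 counts in the siCTRL libraries and 21150, 19470, 27916 and 20767 counts in the siAPEX1 libraries (log2 fold change 9.29 ± 0.127 SE, adjusted p = 1.09e-41), against the direction that silencing would give. The paper states that the cells were silenced for APE1 protein and refers to a representative Western blot, a measure of protein and not of RNA. Counts per gene cannot tell reads of the APEX1 transcript from reads of the transfected siRNA. Each direction below is therefore that of the libraries labelled siAPEX1 against those labelled siCTRL. The libraries held between 1348386 and 1949886 counts, and every siAPEX1 library was smaller than every siCTRL library. The TMM factors, which correct for differences in RNA composition, lay between 1.101 and 1.134 in siCTRL and between 0.876 and 0.921 in siAPEX1, so values relative to library size depend on that scaling. All 14 markers of A549 cells were detected, with a summed level of 2053 to 2271 CPM (counts of a gene per 1000000 counts of its library, with TMM factors applied) in siCTRL and 1766 to 1897 in siAPEX1. In the edgeR test given with the members, 8 of these were lower in siAPEX1 (adjusted p of at most 0.05), including the keratins KRT7, KRT8, KRT18 and KRT19, and 2 were higher, where 15.8% of all tested genes were lower and 15.9% higher. The 12 markers of other cell types summed to at most 8.12 CPM in any library, with 6 of them at 0 in all siCTRL libraries and 9 in all siAPEX1 libraries. Whether the lower keratin levels bear on the members was not tested.

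HIF1A and 6 of its targets rose in the siAPEX1 libraries and no member fell. In bulk RNA, more cells that express a gene and more RNA per cell cannot be told apart. ADM, the vasodilator peptide adrenomedullin, rose the most, to 3.0 times its control level. EGLN3 rose 2.28-fold, the mitophagy receptor BNIP3L 2.0-fold, NDRG1 1.80-fold, P4HA1 1.65-fold, VEGFA 1.64-fold and HIF1A itself 1.49-fold. The differences of SLC2A1, the glucose transporter GLUT1, and of BNIP3 did not pass the test. In the fit over all genes (edgeR quasi-likelihood test, adjusted p of at most 0.05), 7 of the 9 tested members were thus higher and 0 lower, where 15.9% of all tested genes were higher and 15.8% lower. Against the 4870 protein-coding genes alone, a comparison added after these values were seen, 12.5% were higher and 15.9% lower. The median log2 fold change was 0.73 over the 9 members and -0.0031 over all tested genes. With a log2 fold change of at least 1 also required, 2 members (ADM and EGLN3) were past both limits, where 3.6% of all tested genes were higher by this rule and 5.68% lower. The CPM of 5 tested members (HIF1A, ADM, NDRG1, BNIP3L and EGLN3) lay without overlap above siCTRL, where those of 14% of all tested genes did so and those of 14.9% lay without overlap below. BNIP3L lay just under that limit, at 0.9964. EGLN3 entered the test through the group where it is high, since 4 of 4 siAPEX1 libraries but 2 of 4 siCTRL libraries passed the count limit that 4 libraries have to pass, and a like gene low in siAPEX1 could have stayed untested. Without EGLN3, 6 of the other 8 tested members were higher.

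**Figure D1:**
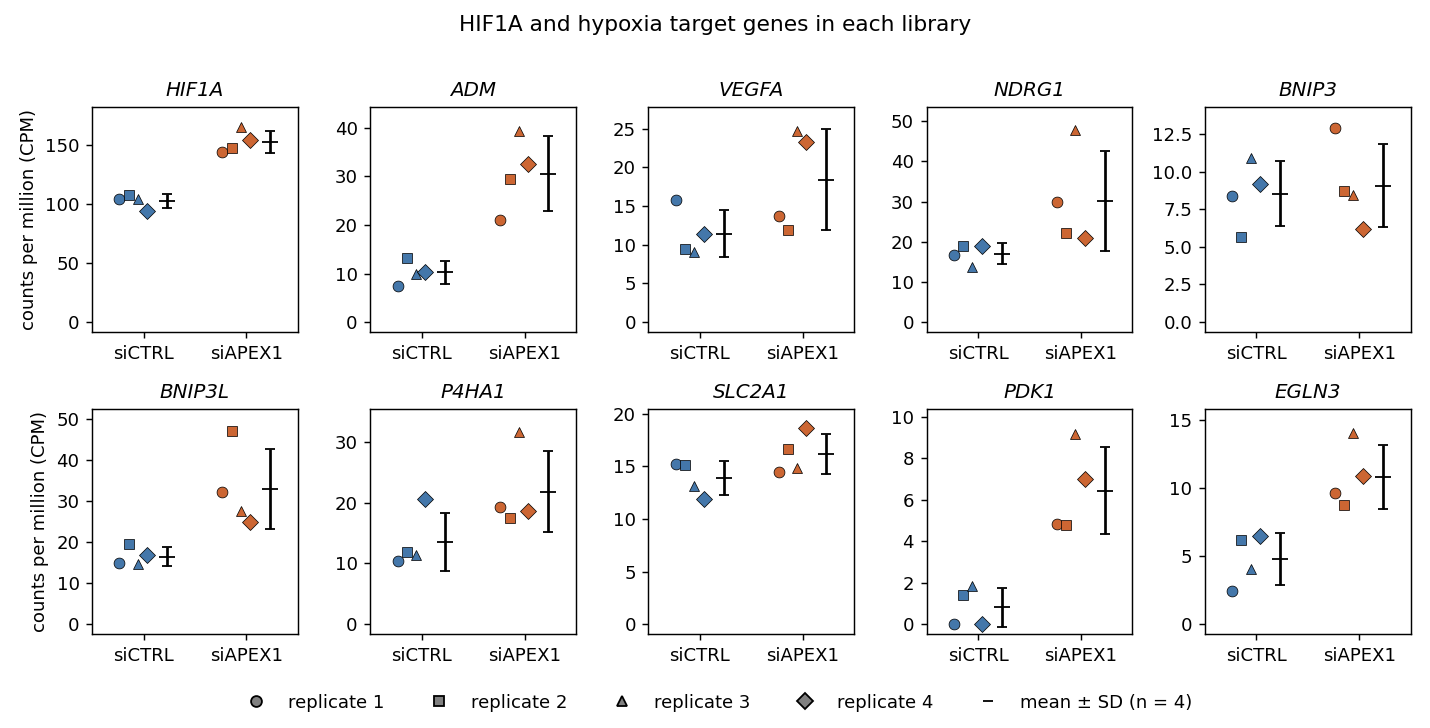
CPM, scaled with TMM factors, of the 10 members in the 4 siCTRL libraries (blue) and the 4 siAPEX1 libraries (orange); symbols are replicate numbers and bars are the mean ± SD of each group. HIF1A, ADM, NDRG1, BNIP3L, PDK1 and EGLN3 have no overlap between groups, while VEGFA, BNIP3, P4HA1 and SLC2A1 overlap.

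The scaling set the size of these differences. With library size alone, without TMM factors, the median of all tested genes shifted to -0.34, with 346 genes higher and 1917 lower against 856 higher and 846 lower with TMM factors. Under that scaling 4 members (ADM, BNIP3L, EGLN3 and NDRG1) were still called higher, where 6.45% of all tested genes were, and all 9 lay above the shifted median of all genes. HIF1A then stood at 0.24 on the log2 scale (adjusted p = 0.0505), and the small differences of BNIP3 and SLC2A1 turned negative.

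HIF1A (ENSG00000100644, GRCh38 chromosome 14 from 61695513 to 61748259, plus strand) had 213, 228, 231 and 174 counts in siCTRL replicates 1 to 4 and 179, 186, 235 and 199 in siAPEX1. Scaled, these were 104.7, 108.0, 104.7 and 94.2 CPM in siCTRL and 144.2, 147.8, 165.7 and 154.6 CPM in siAPEX1. The raw counts of the groups overlap, and the CPM do not. HIF1A averaged 103 ± 6.02 CPM (SD, n = 4) in siCTRL and 153 ± 9.47 CPM (SD, n = 4) in siAPEX1, a log2 fold change of 0.57 (SE 0.0970, 95% interval 0.38 to 0.77, adjusted p = 8.54e-06). Its coefficient of variation was 5.85% in siCTRL and 6.19% in siAPEX1, while counting error alone gives 6.88% and 7.08%. The call held in 15 of 16 other ways of processing, library size alone being the exception. Antisense transcripts overlap the gene, and HIF1A-AS3 and HIF1A-AS1 had 5 and 2 counts in all libraries together, against 1645 for HIF1A. The genes whose log2 CPM followed that of HIF1A most closely over the 8 libraries were SPATS2L (Pearson's r = 0.992), SNORD100 (0.990) and RNVU1-2A (0.988). These libraries share the group difference, the depth and the scaling, so the correlations are descriptions.

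Promoter sequences are shown as a description of where the core motif of HIF stands near these genes. RefSeq promoter windows (GRCh38.p14, 250 bases before to 50 after a start) were at hand for 7 of the 10 members, not for VEGFA, NDRG1 and BNIP3L. The 7 members have 9 windows, since HIF1A and PDK1 have 2 each. The motif ACGTG was present, on either strand, in 3 of the 9 windows and in 21.4% of 35116 promoter windows. GCGTG was present in 4 of the 9 and in 36.5% of all. At least 1 of these motifs stood in 6 of the 9 windows, against 48.4% of all windows. Counted by gene, 6 of the 7 members had one in some window, against 52.4% of 27305 genes. No match was found in the EGLN3 window or in the other window of HIF1A and of PDK1. Of the 6 targets called higher, ADM and P4HA1 had a match, EGLN3 had none, and VEGFA, NDRG1 and BNIP3L had no window. The windows below are written 5′ to 3′ along the gene, with 1 motif match each in capitals. The BNIP3 and PDK1 stretches hold further matches that are not marked. CACGT is ACGTG read on the opposite strand, and CACGC is GCGTG read in that way. The P4HA1 and PDK1 stretches lie upstream of a RefSeq start but within the span that GENCODE 44 gives to the gene.
HIF1A (chr14:61695297-61695325, plus strand): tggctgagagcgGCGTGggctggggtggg
ADM (chr11:10304960-10304988, plus strand): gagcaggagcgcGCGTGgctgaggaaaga
BNIP3 (chr10:131982040-131982068, minus strand): cgcacgcgccgcACGTGccacacgcaccc
P4HA1 (chr10:73096936-73096964, minus strand): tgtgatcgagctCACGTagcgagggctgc
PDK1 (chr2:172556070-172556098, plus strand): cgccacgtccctCACGTaccactcggcag
BNIP3, with motifs at several places of its window, did not pass the test. Neither did SLC2A1, which has GCGTG after the start, in a stretch not printed here. EGLN3, with no match in its window, passed. A match of letters does not show binding, and the data hold no measure of binding.

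Among the secreted factors, ADM (ENSG00000148926, chromosome 11 from 10305073 to 10307397, plus strand) had 7.38, 13.3, 9.97 and 10.3 CPM in siCTRL and 20.9, 29.4, 39.5 and 32.6 CPM in siAPEX1, from 15 to 28 and from 26 to 56 counts. The lowest siAPEX1 library lay above the highest siCTRL library. Its mean went from 10.2 ± 2.41 to 30.6 ± 7.70 CPM (SD, n = 4 each; log2 fold change 1.59, SE 0.203, adjusted p = 3.85e-08). ADM passed the test in all 16 other ways of processing, with log2 fold changes from 1.25 to 1.75. VEGFA (ENSG00000112715, chromosome 6 from 43770184 to 43786487, plus strand), the main growth factor of blood vessels, had 15.7, 9.47, 9.06 and 11.4 CPM in siCTRL and 13.7, 11.9, 24.7 and 23.3 CPM in siAPEX1. Its siAPEX1 libraries split, with replicates 3 and 4 above all siCTRL libraries and replicates 1 and 2 within or near the siCTRL range. A log2 fold change of 0.71 (SE 0.233, adjusted p = 0.0166) did not pass in 6 of the 16 other ways of processing. These were library size alone (0.37, adjusted p = 0.187), DESeq2 (0.68, adjusted p = 0.181), all genes with at least 1 count (adjusted p = 0.0535), and the fits without siCTRL replicate 3 (adjusted p = 0.0643), siAPEX1 replicate 3 (adjusted p = 0.104) or siAPEX1 replicate 4 (adjusted p = 0.0729).

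EGLN3 is the oxygen sensor among the members and SLC2A1 brings glucose into the cell. EGLN3 (ENSG00000129521, chromosome 14 from 33924227 to 34462774, minus strand) had 5, 13, 9 and 12 counts in siCTRL and 12, 11, 20 and 14 in siAPEX1. That is 2.46, 6.16, 4.08 and 6.50 CPM against 9.66, 8.74, 14.1 and 10.9 CPM. The CPM do not overlap although the raw counts do, and the log2 fold change was 1.19 (SE 0.299, adjusted p = 0.00184; with DESeq2, adjusted p = 0.0530). EGLN3 spans SPTSSA on the same strand, and reads that overlap several genes are left out by the authors' counting. SLC2A1 (ENSG00000117394, chromosome 1 from 42925353 to 42958893, minus strand) had 15.2, 15.2, 13.1 and 11.9 CPM in siCTRL and 14.5, 16.7, 14.8 and 18.6 CPM in siAPEX1. Its groups overlap and its log2 fold change was 0.21 (95% interval -0.19 to 0.62, adjusted p = 0.465), an interval that leaves out a doubling and still holds the difference seen for HIF1A.

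PDK1, a kinase that restrains the entry of pyruvate into mitochondrial oxidation, was near the limit of detection in the controls. PDK1 (ENSG00000152256, chromosome 2 from 172555373 to 172608669, plus strand) had 0, 3, 4 and 0 counts in siCTRL and 6, 6, 13 and 9 counts in siAPEX1. Every siAPEX1 library was above every siCTRL library, with means of 0.808 ± 0.947 and 6.44 ± 2.09 CPM (SD, n = 4 each). The difference of 5.63 CPM had an exact two-sided permutation p of 0.0286, not adjusted, which is the smallest that 4 libraries against 4 can give. When genes with at least 1 count were all fitted, PDK1 came out at 2.74 on the log2 scale (edgeR, SE 0.520, adjusted p = 6.64e-06), and with DESeq2 2.93 (SE 0.763, adjusted p = 0.00207). At 1.75 counts per siCTRL library on average, the size of this difference is poorly known.

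BNIP3 and BNIP3L are related outer mitochondrial membrane proteins that recruit the autophagy machinery, and only BNIP3L was called. BNIP3L, on the plus strand of chromosome 8 (ENSG00000104765), had 14.8, 19.4, 14.5 and 16.8 CPM in siCTRL and 32.2, 46.9, 27.5 and 24.9 CPM in siAPEX1. Its groups do not overlap, and its log2 fold change was 0.9964 (SE 0.184, adjusted p = 3.42e-05), past the test in all 16 other ways of processing. BNIP3 (ENSG00000176171, chromosome 10 from 131967684 to 131981967, minus strand) had 8.36, 5.68, 10.9 and 9.20 CPM in siCTRL and 12.9, 8.74, 8.46 and 6.22 CPM in siAPEX1. The groups overlap throughout, and the log2 fold change was 0.08 (95% interval -0.48 to 0.64, adjusted p = 0.859). Its sign turned in 4 of the 15 other fits that gave it a value. The 95% interval of BNIP3L runs from 0.63 to 1.37 and so barely meets that of BNIP3, and the difference between these 2 genes was not tested. BNIP3L overlaps PNMA2 on the opposite strand, which had 126 counts in all against 304 for BNIP3L, and the strand setting of the counting is not stated.

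NDRG1 and P4HA1 had uneven replicates. NDRG1, on the minus strand of chromosome 8 (ENSG00000104419), encodes a stress-responsive protein used as a marker of hypoxia. It had 16.7, 19.0, 13.6 and 18.9 CPM in siCTRL and 29.8, 22.2, 47.9 and 21.0 CPM in siAPEX1. No siAPEX1 library fell into the siCTRL range, but replicate 3 stood far above the rest, and the coefficient of variation of 41.1% in siAPEX1 compares with 15.8% from counting error alone. Its log2 fold change was 0.85 (SE 0.201, adjusted p = 9.26e-04), and 0.55 (adjusted p = 0.0390) without siAPEX1 replicate 3. P4HA1 (ENSG00000122884, chromosome 10 from 73007217 to 73096974, minus strand), a catalytic subunit of collagen prolyl hydroxylase, had 10.3, 11.8, 11.3 and 20.6 CPM in siCTRL and 19.3, 17.5, 31.7 and 18.6 CPM in siAPEX1. Without siCTRL replicate 4, the siCTRL libraries would all lie below siAPEX1. The log2 fold change was 0.73 (SE 0.220, adjusted p = 0.00938). The call was lost with library size alone (0.39, adjusted p = 0.142), with DESeq2 (0.69, adjusted p = 0.139) and without siAPEX1 replicate 3 (0.50, adjusted p = 0.114).

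One library carried much of the spread. siAPEX1 replicate 3 was the highest of its group for 7 of the 10 members (HIF1A, ADM, VEGFA, NDRG1, P4HA1, PDK1 and EGLN3) and the lowest for 0, while it was the highest of its group for 23.7% of all tested genes. It was also the highest for 8 of 11 tested glycolytic targets and for 12 of 32 other hypoxia-induced genes, but for 0 of 3 HIF subunits and coactivators, 3 of 7 genes of oxygen-dependent control and 1 of 5 other regulators. A lead of this kind was also seen among the controls, where siCTRL replicate 1 was the highest for 7 of the 11 glycolytic targets. Without siAPEX1 replicate 3, 5 of the 9 members remained higher, with VEGFA and P4HA1 lost. In that fit 13.9% of all tested genes were higher. The median of the members then was 0.56. What set siAPEX1 replicate 3 apart was not tested.

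**Figure D2:**
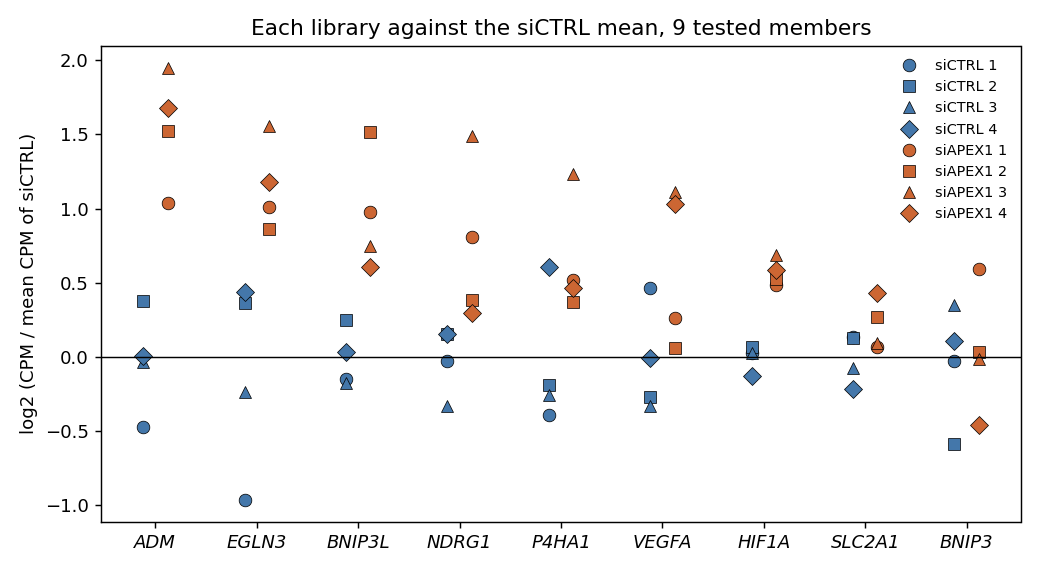
Log2 of the CPM of each library over the mean CPM of the 4 siCTRL libraries, for the 9 tested members, in blue for siCTRL and orange for siAPEX1; symbols are replicate numbers. siAPEX1 replicate 3 (orange triangles) is the highest point for ADM, EGLN3, NDRG1, P4HA1, VEGFA and HIF1A, but not for BNIP3L, SLC2A1 or BNIP3.

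The members were ordered by level per length, as CPM per kb of the exons that GENCODE 44 gives for all isoforms of a gene. HIF1A was the most abundant in both groups, at 20.0 ± 1.17 CPM per kb (SD, n = 4) in siCTRL and 29.7 ± 1.84 (SD, n = 4) in siAPEX1. In siCTRL, ADM (4.397), P4HA1 (4.37) and BNIP3L (3.94) followed with ranges that overlap between neighbours. BNIP3 (2.11) and SLC2A1 (2.10) came next and overlap each other. They were followed by NDRG1 (1.42), then VEGFA (0.791) and EGLN3 (0.652), which overlap, and last by PDK1 (0.0545). In siAPEX1, ADM stood at 13.2 CPM per kb, apart from HIF1A, and its range reached that of BNIP3L (7.92). NDRG1 (2.52), SLC2A1 (2.44) and BNIP3 (2.24) then had overlapping ranges, although NDRG1 had been below both in siCTRL. Exon lengths take in isoforms that these cells may not use.

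**Figure D3:**
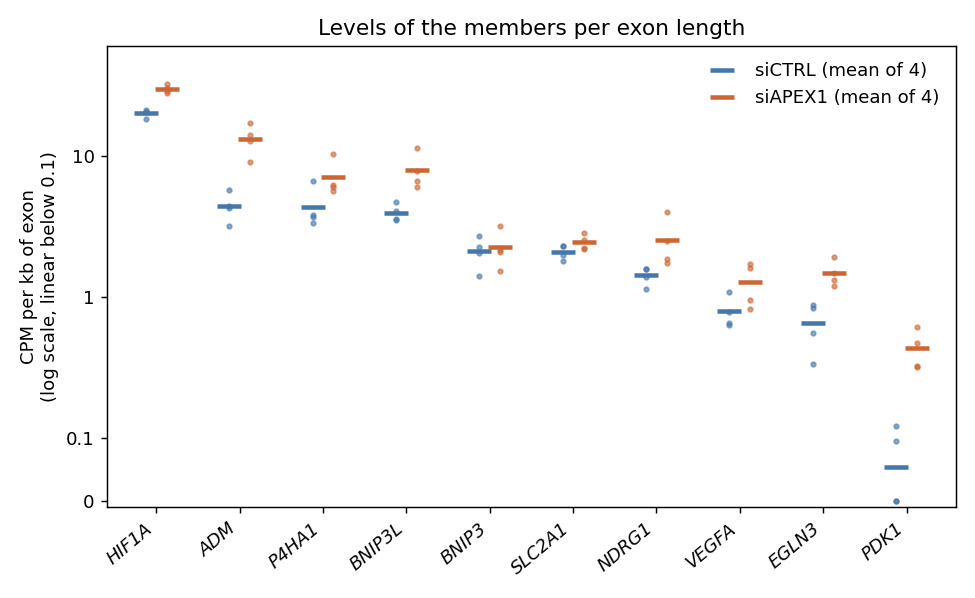
CPM per kb of exon of the 10 members in siCTRL (blue) and siAPEX1 (orange), on a scale that is logarithmic above 0.1 and linear below; dots are libraries and lines are group means. HIF1A lies above every target in both groups, and PDK1 lies lowest, with 2 siCTRL libraries at 0.

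Other genes of the pathway came from 5 lists of 99 names, of which 98 were found and 58 were tested. Of these, 22 were higher and 8 lower, with a median log2 fold change of 0.32, where 15.9% of all tested genes were higher and 15.8% lower. Among HIF subunits and coactivators, 1 of 3 tested genes was higher. This was EPAS1, the other main oxygen-regulated subunit, which went from 20.9 ± 2.03 to 39.8 ± 5.48 CPM (log2 fold change 0.92, adjusted p = 5.65e-06). The coactivators EP300 (-0.14, adjusted p = 0.697) and CREBBP (0.01, adjusted p = 0.98) did not pass. ARNT, the partner of HIF1A, had 47 counts in all libraries together and was not tested.

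Of 7 tested genes that control HIF by oxygen, 0 were higher and 2 lower, where 15.9% and 15.8% of all tested genes were. OS9, an endoplasmic reticulum lectin that also binds HIF1A and prolyl hydroxylases, fell from 35.5 ± 4.53 to 17.0 ± 5.20 CPM (log2 fold change -1.05, adjusted p = 9.71e-06). EGLN2, a further prolyl hydroxylase, had 14 to 23 counts in siCTRL and 4 to 9 in siAPEX1 (-0.81, adjusted p = 0.0414), and this call was lost in 8 of 15 other fits. It entered the test through siCTRL, with 4 of 4 libraries past the count limit against 2 of 4 in siAPEX1. The main prolyl hydroxylase EGLN1 stood at 0.31 (adjusted p = 0.279), the asparagine hydroxylase HIF1AN 0.24 (adjusted p = 0.651) and VHL -0.06 (adjusted p = 0.898). The elongins of the VHL complex, ELOB at -0.33 (adjusted p = 0.137) and ELOC at 0.12 (adjusted p = 0.652), did not pass either, though ELOB was called lower with library size alone (-0.66, adjusted p = 0.00118). Of 5 tested regulators of other kinds, 3 were higher. These were the chaperone HSP90AA1, known to stabilise HIF1A (0.58, adjusted p = 3.29e-06), the ubiquitin ligase MDM2 (0.56, adjusted p = 0.0139) and thioredoxin, TXN (0.40, adjusted p = 0.00248). HSP90AB1 (0.06, adjusted p = 0.650) and RACK1 (-0.07, adjusted p = 0.641) were not called. MDM2 and TXN lost their calls with library size alone and with all genes of at least 1 count (adjusted p = 0.125 and 0.0729), MDM2 also with DESeq2 (adjusted p = 0.187). With library size alone, HSP90AB1 and RACK1 were called lower.

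Among 32 tested genes that hypoxia is known to induce and that are not members, 14 were higher and 5 lower, with a median log2 fold change of 0.42, where 15.9% of all tested genes were higher and 15.8% lower. With the limit on fold change, 5 were higher and 1 lower, against 3.6% and 5.68% of all. The risers were the haem oxygenase HMOX1 (1.74, adjusted p = 5.91e-08), the lipase inhibitor ANGPTL4 (1.73, adjusted p = 8.17e-06), the transferrin receptor TFRC (1.70, adjusted p = 1.83e-08), the collagen lysyl hydroxylase PLOD2 (1.37, adjusted p = 1.38e-12) and the VEGF receptor FLT1 (1.07, adjusted p = 2.62e-08). HMOX1 and TFRC also answer to oxidative stress and to iron. ANGPTL4, HMOX1 and GBE1 entered the test through siAPEX1, the group where they are high, with 4 of 4 libraries past the count limit. In siCTRL, 0, 3 and 1 of 4 libraries passed it. GBE1 (0.82, adjusted p = 0.0309) is among the 14 higher. SLC2A3 (-0.77, adjusted p = 0.0342), among the 5 lower, entered through siCTRL, with 4 of 4 siCTRL and 2 of 4 siAPEX1 libraries. The counts of this list and of the 5 lists together include these genes. The lysyl oxidase LOXL2 fell by 1.14 on the log2 scale (adjusted p = 6.77e-06). AK3, an adenylate kinase (0.96, adjusted p = 2.28e-04), the oxidase ERO1A (0.81, adjusted p = 9.70e-05), DDIT4, an inhibitor of mTOR (0.66, adjusted p = 2.04e-05), and the carbonic anhydrase CA12 (0.41, adjusted p = 0.00177) also rose, CA12 without a call when library size alone was used. The vasoconstrictor peptide EDN1 fell (-0.55, adjusted p = 0.00118). The carbonic anhydrase CA9, a marker often used for hypoxia, had 33 counts over all libraries and was not tested.

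Glycolytic targets were mixed, with 4 of 11 tested higher and 1 lower, where 15.9% of all tested genes were higher and 15.8% lower. The median of the glycolytic targets was 0.22. PGK1 (0.83, adjusted p = 5.10e-07) and LDHA (0.44, adjusted p = 0.00177) rose, and LDHA was not called with library size alone. That median is below those of the 9 members and of the other hypoxia-induced genes, a description that was not tested.

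**Figure D4:**
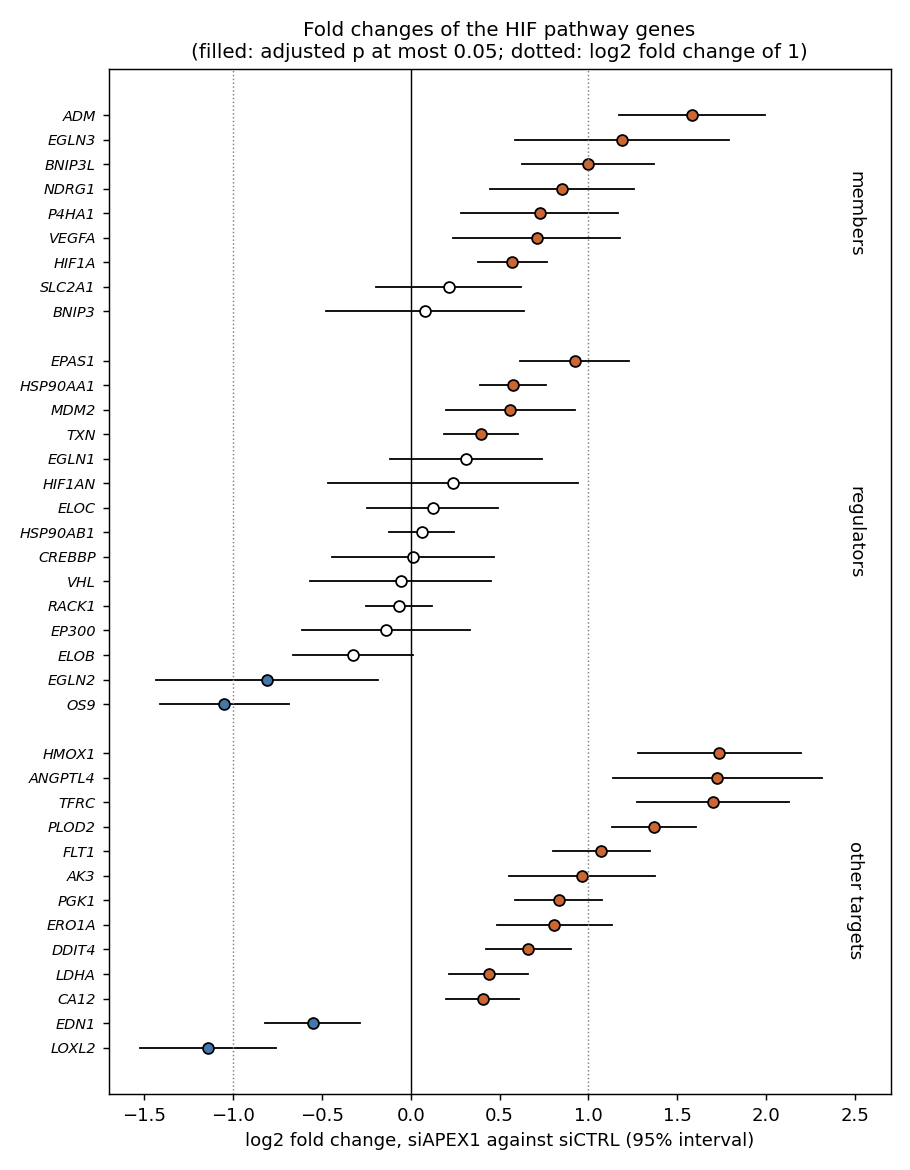
Log2 fold change of siAPEX1 against siCTRL with its 95% interval (edgeR), for the 9 tested members, the tested regulators and the other named targets; orange and blue points have an adjusted p of at most 0.05 and open points do not. All members lie right of 0, with BNIP3 and SLC2A1 open. Left of 0 lie OS9, EGLN2, LOXL2 and EDN1 as blue points, and EP300, VHL, ELOB and RACK1 as open points.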

How the data were processed

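The authors sequenced total RNA of A549 cells with a small-RNA kit that tails the RNA, changed so as to read primary miRNA transcripts too, as single-end reads on an Illumina instrument. They removed adapters with cutadapt and aligned to GRCh38 with STAR 2.5.3a, and the values they deposited are raw read counts per Ensembl gene from its GeneCounts function, without normalization. The submitters' processing notes also name CASAVA and DESeq2. The annotation release and the strand setting are not given in the sources used here.

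Libraries were grouped by their titles. The members and gene lists were chosen with earlier results of these data known. Counts were tested with edgeR 4.0.16 in R 4.3.3 (TMM factors on total counts, filterByExpr set to 10 counts and to 15 in total, quasi-likelihood test, Benjamini-Hochberg adjustment over 5368 genes). A call needed an adjusted p of at most 0.05, and by the stricter rule a log2 fold change of at least 1 in either direction too. The tested genes held 97.5% to 98.1% of the counts, and the common biological coefficient of variation was 0.0832. Standard errors are the log2 fold change divided by the square root of F. CPM use these factors, and log2 CPM were taken with a prior count of 2. The genes named are the members, all tested regulators, and those listed targets past both limits or, beside these, the 8 with the smallest adjusted p, of which 1 is not reported here and stays in the counts of its list. Outside this rule, GBE1 and SLC2A3 are named for how they entered the test. The exact permutation test used SciPy 1.17.1. Alternatives were RLE and upper-quartile factors, library size alone, TMM factors from protein-coding genes, DESeq2 1.42.0, other count filters, a fold limit of 0.75, a block on the replicate number, and leaving out 1 library at a time. The programs were tested on simulated data. Intervals cover counting and replicate spread of these libraries only.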

Additional observations from a re-analysis of the deposited data

Results flagged for a closer look

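The rule given above named 39 genes, in 78 groups of 4 libraries. Of these groups, 3 had a library far from the other 3, by the ratio of its gap to the range of the group. Chance gives about 1 in 20 groups. P4HA1 was involved in both groups. In siCTRL, replicate 4 had 20.6 CPM where the other 3 had 10.3 to 11.8, and in siAPEX1, replicate 3 had 31.7 CPM where the other 3 had 17.5 to 19.3. HMOX1 was lowest in siAPEX1 replicate 3, at 18.3 CPM against 22.5 to 23.4 in the other 3. HMOX1 passed the test in every fit that leaves out 1 library, and P4HA1 passed in all of these but that without siAPEX1 replicate 3.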

How the results depend on the processing

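Of 142 values of the 9 tested members over 16 alternatives, 126 kept their direction and their side of the threshold, 11 lost the call and 5 turned in sign, all 5 in BNIP3 or SLC2A1, which were not called. No pairing of the libraries by replicate number was seen. Deviations from the group means correlated between -0.0373 and -0.00348 for same-numbered libraries, and 0 of 4 libraries of either group correlated best with their own number. With 4 libraries per group, these correlations cannot show whether same-numbered libraries shared a culture or a batch. With the replicate block, 7 members stayed higher, where 15% of all tested genes were higher. In that fit EGLN2 lost its call (adjusted p = 0.0649) and 5 pathway genes were lower.
Library size alone gave 346 genes higher and 1917 lower of 5368 (84 and 647 with the fold limit). It gave 4 of 9 members higher (1 with the fold limit), where 6.45% of all tested genes were higher (1.56% with the fold limit). Of the pathway genes, 12 were higher and 14 lower (4 lower with the fold limit). DESeq2 gave 455 genes higher, 447 lower and 3 pathway genes lower, and TMM factors from protein-coding genes gave 5 pathway genes lower. Of the 9 members, DESeq2 called 4 higher (1 with the fold limit), where 5.94% of all genes it tested were higher (2.16% with the fold limit). It also tested PDK1, and with PDK1 these counts were 5 and 2. With the fold limit, all genes with at least 1 count gave 295 of 22272 higher (1.32%) and 648 lower. At least 10 counts in every library gave, with the fold limit, 81 of 3147 genes higher (2.57%) and 100 lower. By that rule 1 of the 7 members it tested and 2 pathway genes were higher. This filter left BNIP3, EGLN3, ANGPTL4 and HMOX1 untested. The limit of 0.75 gave 404 higher and 530 lower of 5368 genes, with 4 members and 12 pathway genes higher and 4 pathway genes lower. Leaving out 1 library at a time, members past the fold limit numbered 1 (without siCTRL replicate 1) to 4 (without siAPEX1 replicate 4). In these fits 3.66% to 4.16% of all tested genes were higher by that rule. Members higher without the fold limit numbered 5 to 7, where 13.5% to 14.9% of all tested genes were higher. Pathway genes lower numbered 3 to 7. With the fold limit, pathway genes higher numbered 4 to 8 and lower 1 to 3.
Among values not called, signs turned for BNIP3 (-0.25 with library size alone, -0.014 with all genes, -0.0769 without siCTRL replicate 2, -0.0988 without siAPEX1 replicate 1, to 0.25 without siAPEX1 replicate 4), SLC2A1 (-0.12 with library size alone), EP300 (-0.31 to 0.15 over the libraries left out) and EGLN1 (-0.0213), ELOC (-0.21) and HSP90AB1 (-0.27, adjusted p = 0.0147, a call) with library size alone. CREBBP turned with library size alone (-0.32), DESeq2 (-0.0068), all genes (-0.0817), at least 10 counts (-0.0737) and without siCTRL replicate 1 (-0.0884), siAPEX1 replicate 3 (-0.0189) or siAPEX1 replicate 4 (-0.0391), and reached 0.17 without siAPEX1 replicate 1. HSP90AB1 turned with all genes (-0.0343) and at least 10 counts (-0.0263), HIF1AN with library size alone (-0.096) and without siAPEX1 replicate 3 (-0.12, to 0.57 without replicate 1), VHL without siAPEX1 replicate 2 (0.0614) or 3 (0.0065, down to -0.10 without replicate 1), and RACK1 without siAPEX1 replicate 4 (0.0153, down to -0.11 without siCTRL replicate 4). Beyond the scaling, the cause was not tested. For PDK1, 3 libraries against 4 cannot give a p below 0.0571. Depth limits the targets, since all 9 of them averaged under 45 counts per library in either group.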

Other observations

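MIR210, the gene of the miRNA most regularly induced by hypoxia, is on the list of hypoxia-induced genes and was singled out after its values were seen. Its mature hsa-miR-210-3p (RefSeq GRCh38.p14, chr11:568112-568133, minus strand) has its seed, bases 2 to 8, in capitals.
hsa-miR-210-3p: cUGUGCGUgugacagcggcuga
MIR210 (ENSG00000199038) had 114, 125, 84 and 79 counts in siCTRL and 52, 40, 151 and 75 in siAPEX1, which is 56.1, 59.2, 38.1 and 42.8 CPM against 41.9, 31.8, 106.5 and 58.3 CPM. The groups overlap, and siAPEX1 replicate 3 stands above all other libraries. The log2 fold change was 0.31 (edgeR, standard error 0.191, adjusted p = 0.231). These counts cannot tell apart the arms of the hairpin or the primary transcript from the mature miRNA. MIR210HG, the host transcript, had 8 counts over all libraries and was not tested.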
